A study of Mus musculus with 5 samples.

Results

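The voltage-gated sodium channel subunits described here are 9 genes, listed by name and not by their values. They are the alpha subunits Scn1a, Scn3a, Scn8a and Scn9a, called sensitive to the pufferfish toxin tetrodotoxin (TTX), the TTX-resistant alpha subunits Scn10a and Scn11a, and the beta subunits Scn2b, Scn3b and Scn4b. Each matched 1 of the 17271 rows of the deposited count matrix by its symbol. Dorsal root ganglia, which hold the cell bodies of the sensory neurons of body and limbs, were taken from the lumbar level of 5 adult, untreated, wild-type C57BL/6 mice of both sexes, enzymatically dissociated and sequenced from the 3′ end of transcripts in droplets. There was 1 group of mice and no treatment, so the comparisons are between cell types of the same mice. The matrix held 3352 cells in the 14 types named by the authors: 12 neuron types with 3047 cells, satellite glia with 249 cells and endothelial cells with 56. Neurons called NF carry neurofilament, PEP neurons are peptidergic and NP neurons non-peptidergic, and the rest of each name gives genes that mark the type. The types came from clustering these same counts, so each test below gives the size of a difference and its spread over mice, and is not independent evidence that types differ.

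An alpha subunit forms the pore through which sodium enters when the membrane depolarizes, and a beta subunit is a single-pass membrane protein that alters gating and placement of the pore. Sensory neurons mix fast channels that TTX blocks with channels that it does not block, of which those of Scn10a and Scn11a are known from small neurons for pain and itch. Scn9a is known for its place in human pain, since people who lack its product feel none, and Scn1a and Scn8a are known from large myelinated axons.

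Several members lie side by side in the mouse genome (build mm10, GRCm38), where the matrix names the same chromosome and strand. Scn10a (chr9:119608456-119719322) and Scn11a (chr9:119753759-119825456) both lie on the minus strand with 34436 bases between them. Scn1a (chr2:66270778-66440840) and Scn9a (chr2:66480080-66634962) are 39239 bases apart on the minus strand, and Scn3a (chr2:65457118-65567627) lies 703150 bases from Scn1a. Scn2b (chr9:45117782-45130070) and Scn4b (chr9:45138395-45154152) are 8324 bases apart on the plus strand. Scn3b (chr9:40269217-40291618) and Scn8a (chr15:100869858-101045938) stand alone on the plus strand. An antisense gene overlaps Scn9a, and whether the counting used strand is not given in the sources used here.

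The 250 bases before the RefSeq start site on GRCm38.p6 are shown for 5 members whose levels moved together in groups below. These groups are Scn10a with Scn11a, and Scn1a, Scn8a and Scn4b with each other. RefSeq starts of Scn10a, Scn8a and Scn4b fall within the gene intervals given above. By those intervals the windows of Scn10a and Scn8a lie inside the gene, and that of Scn4b lies mostly inside it. The windows of Scn11a and, but for its last bases, Scn1a lie before the gene. Sequences read 5′ to 3′ on the strand of the gene, and capitals mark CG dinucleotides. RefSeq entries for Scn9a and Scn2b matched too, and Scn3a and Scn3b had none in the table used.
Scn10a (chr9:119719033-119719282, minus strand): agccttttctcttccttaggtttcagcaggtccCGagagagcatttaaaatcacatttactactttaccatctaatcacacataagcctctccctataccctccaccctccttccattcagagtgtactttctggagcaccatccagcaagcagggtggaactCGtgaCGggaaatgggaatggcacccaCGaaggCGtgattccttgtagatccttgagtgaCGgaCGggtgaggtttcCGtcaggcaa
Scn11a (chr9:119825457-119825706, minus strand): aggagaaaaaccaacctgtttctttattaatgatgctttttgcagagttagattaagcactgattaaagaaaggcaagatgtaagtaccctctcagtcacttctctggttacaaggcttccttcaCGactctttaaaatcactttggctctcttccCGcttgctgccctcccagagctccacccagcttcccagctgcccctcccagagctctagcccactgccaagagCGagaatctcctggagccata
Scn1a (chr2:66440838-66441087, minus strand): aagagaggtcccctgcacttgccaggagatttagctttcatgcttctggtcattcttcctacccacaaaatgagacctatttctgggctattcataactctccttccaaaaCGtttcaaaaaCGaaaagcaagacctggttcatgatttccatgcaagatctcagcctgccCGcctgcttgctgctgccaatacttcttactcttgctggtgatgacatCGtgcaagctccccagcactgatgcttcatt
Scn8a (chr15:100870395-100870644, plus strand, the first of 2 starts): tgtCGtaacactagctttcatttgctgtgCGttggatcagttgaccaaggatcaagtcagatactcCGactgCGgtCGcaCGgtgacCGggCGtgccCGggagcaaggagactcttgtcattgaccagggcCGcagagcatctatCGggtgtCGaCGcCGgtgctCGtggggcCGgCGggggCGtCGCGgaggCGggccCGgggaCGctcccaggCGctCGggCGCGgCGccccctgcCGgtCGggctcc
Scn4b (chr9:45138374-45138623, plus strand): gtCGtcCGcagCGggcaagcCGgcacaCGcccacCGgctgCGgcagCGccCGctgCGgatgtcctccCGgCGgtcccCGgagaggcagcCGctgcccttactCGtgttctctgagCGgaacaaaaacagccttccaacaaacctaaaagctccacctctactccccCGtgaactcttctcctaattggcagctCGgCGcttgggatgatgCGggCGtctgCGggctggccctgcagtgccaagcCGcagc
The Scn8a window shown held 30 CG dinucleotides, that of its other start (chr15:100936021-100936270) 9, and the Scn4b window 23, while Scn10a held 8, Scn1a 4 and Scn11a 3. Over 32851 promoters of the same length the median was 6. Windows of Scn9a and Scn2b held 5 and 1. The RUNX core TGTGGT, searched on both strands, was found in 14.05% of all promoters and among these members only in that of Scn2b, and the TATA box TATAAA, in 12.4% of all promoters, in none of the 8 windows read. A match of letters is a description of these windows and says nothing of binding.

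Each library was 1 mouse, and mouse 1 to mouse 5 are names only. Libraries held 164 to 1370 cells and 13050389 to 88886975 unique molecular identifiers (UMIs, each standing for 1 captured transcript), and the median per cell ran from 16889 UMIs in endothelial cells and 17729 in satellite glia to 105150 in NP_Mrgprd neurons. All 16 genes in the names of the neuron types were highest in the type they name. The 5 neuron markers Tubb3, Snap25, Uchl1, Rbfox3 and Prph summed to 9830 to 13017 UMIs per 1000000 (CPM) in neuron types against 544 in satellite glia and 611 in endothelial cells. No barcode-level doublet call was made, and 7 barcodes occurred in more than 1 library. A sum of 1 type in 1 mouse rested on 3 to 463 cells. Levels below are CPM of the UMIs summed over the cells of 1 type in 1 mouse, given as the mean over the 5 mice with the SD. These levels are compared between types. Shares of alpha subunit UMIs, given further down, set genes against each other as captured transcripts and not as channels. Whether genes differ in capture was not tested.

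The members fell into patterns that ran only in part along the neuron classes. Within PEP, Scn10a ran from 2.17 CPM in PEP3_Trpm8 to 399 CPM in PEP2_Htr3a.Sema5a. Within NP, Scn3b ran from 10.7 CPM in NP_Mrgprd to 74.1 CPM in NP_Mrgpra3. Scn1a and Scn4b were highest in the 3 NF types, Scn8a in NF_Calb1 and NF_Pvalb, Scn10a and Scn11a in NP types and, for Scn10a, in PEP2_Htr3a.Sema5a, and Scn9a was found in every neuron type. A type was called higher or lower for a member at an adjusted p under 0.01 and a change of at least 2-fold, by edgeR's quasi-likelihood test on the 70 sums of type and mouse with Benjamini-Hochberg adjustment over 11886 genes. The contrast set a type against the mean of the other 11 neuron types taken on the log scale, so types near 0 pull that mean down. Of 108 pairs of member and neuron type, 39 were higher and 37 lower, where 10.7% of all gene and type pairs were higher and 7.13% lower. Against the summed other neurons of the same mouse, a reference to which NP_Mrgprd neurons gave the most UMIs of any type, 24 pairs were higher (8.05% of all) and 44 lower (12.6%), and 61 pairs had the same call both ways.

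**Figure D1:**
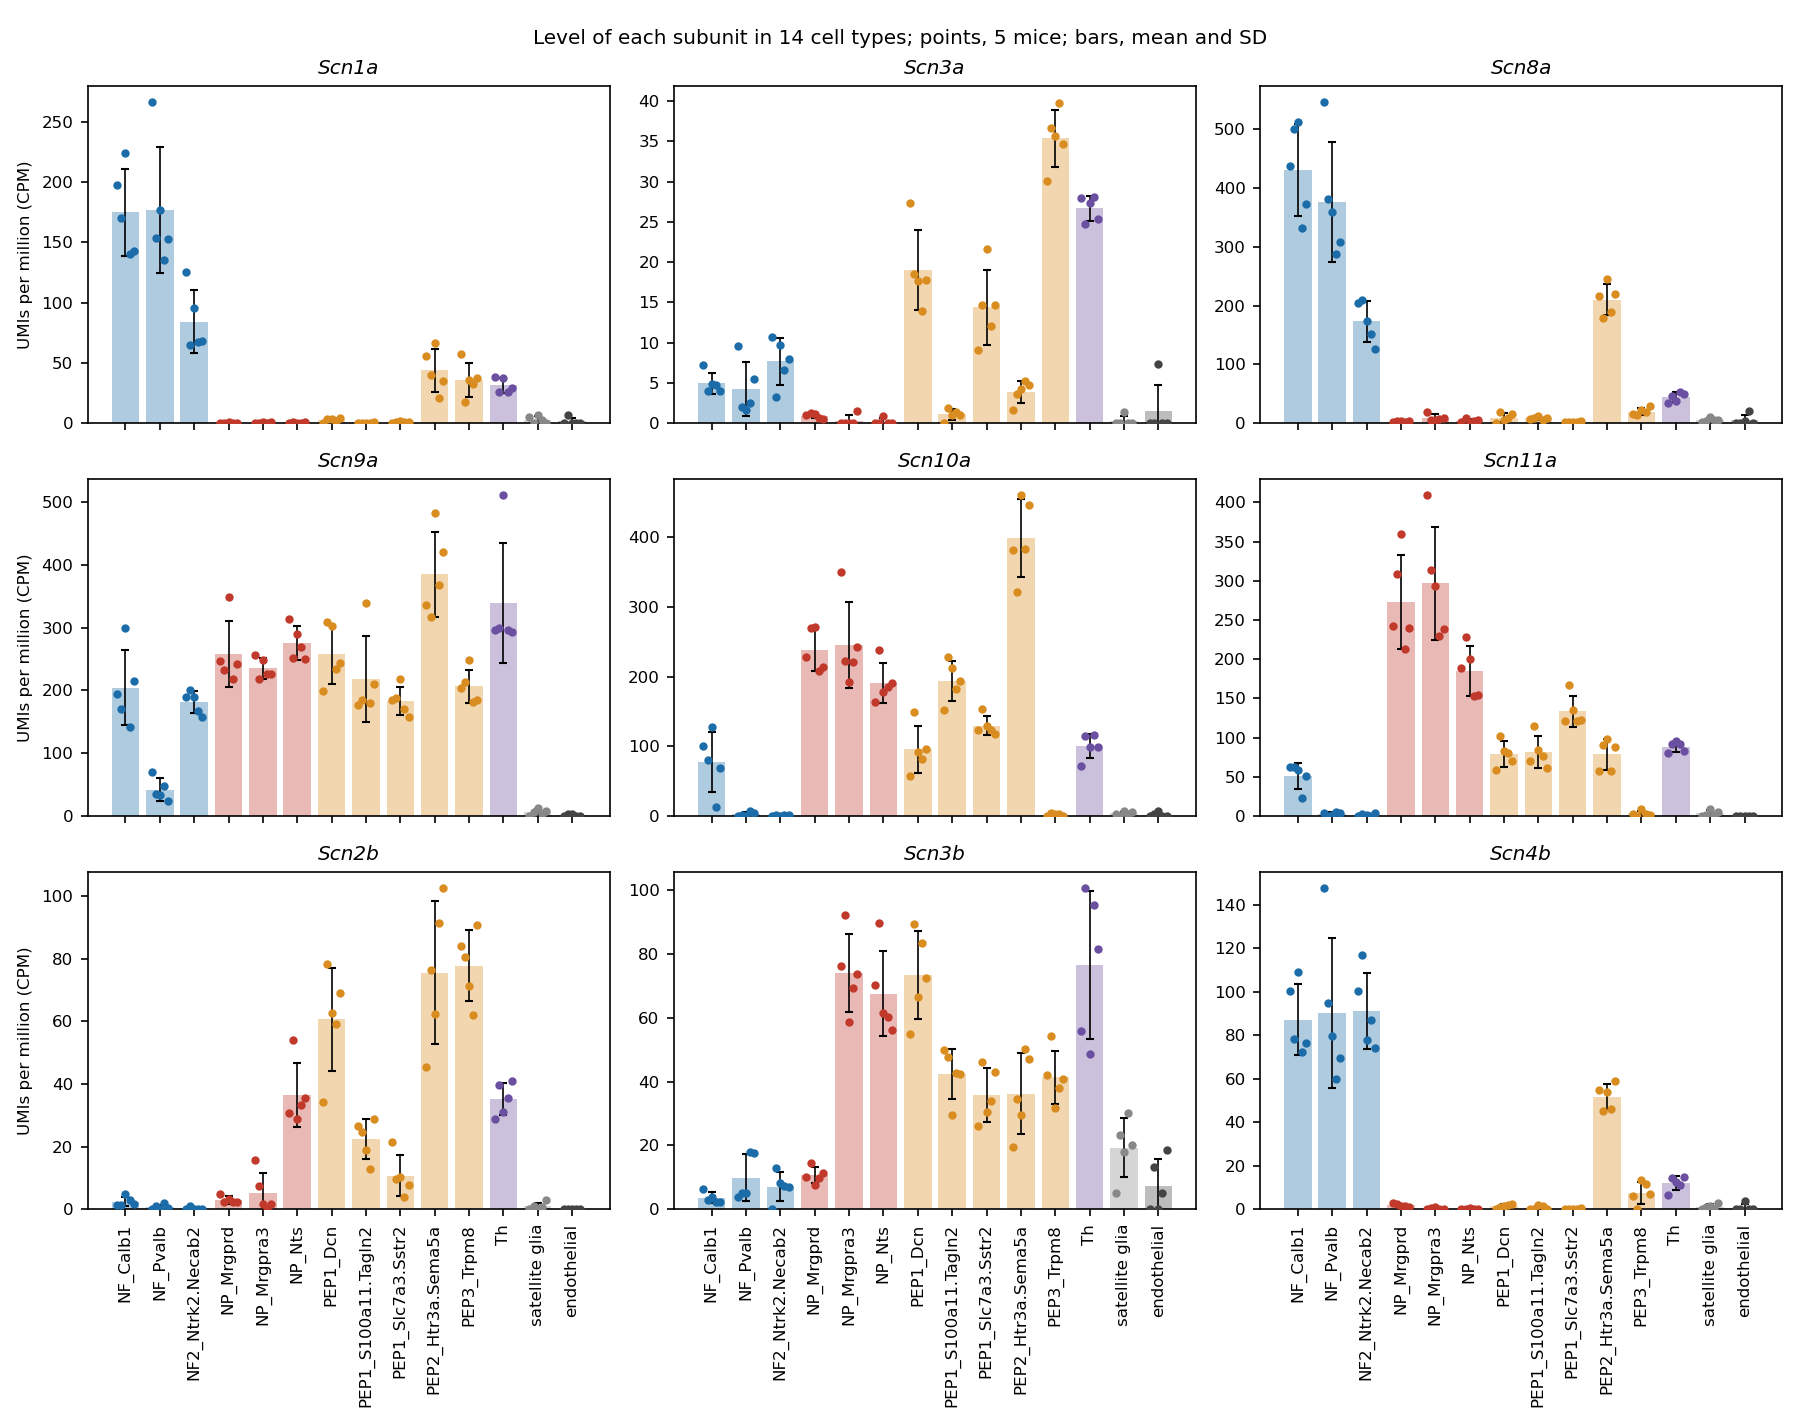
Level of each of the 9 members (y axis, UMIs per 1000000) in the 14 types (x axis); points are the 5 mice, bars the mean and whiskers the SD, coloured by class. Scn9a is at 23.8 CPM or more in every mouse of every neuron type, whereas Scn1a, Scn8a and Scn4b stand high in NF types and near 0 in NP types.

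Scn1a, an alpha subunit of fast-firing neurons, was largely an NF gene. In NF_Pvalb neurons, the class of muscle and joint afferents, the 5 mice gave 267, 154, 177, 135 and 153 CPM, and in NF_Calb1 neurons 198, 171, 224, 140.3 and 143 CPM. These ranges overlapped, and each type was called higher, NF_Pvalb with a log2 fold change of 4.99 ± 0.14 (SE, adjusted p = 4.21e-43). NF2_Ntrk2.Necab2 followed at 84.3 ± 26.2 CPM (SD, n = 5), below NF_Calb1 in all 5 mice. PEP2_Htr3a.Sema5a at 43.7 ± 17.8, PEP3_Trpm8 at 36.1 ± 14.1 and Th at 31.6 ± 6.21 CPM overlapped each other and were also called higher, but not against the summed other neurons, where their log2 fold changes were 0.43, 0.13 and -0.02. The other 6 types held 0.268 to 2.36 CPM and were all called lower, which in PEP1_Dcn was lost without mouse 3 or mouse 5 (adjusted p = 0.0121 and 0.0453). Between the highest and the lowest type the mean level differed 661-fold.

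Scn8a, the main alpha subunit of nodes of Ranvier, had the NF pattern and reached further. NF_Calb1 neurons held 438, 500.4, 512, 332 and 372 CPM in the 5 mice and NF_Pvalb neurons 547, 381, 359, 288 and 308 CPM. PEP2_Htr3a.Sema5a came next at 216, 178, 245, 189.6 and 219.7 CPM, and lay above NF2_Ntrk2.Necab2 (173 ± 35.1 CPM) in 4 of 5 mice. All 4 of these types were called higher, with a log2 fold change of 4.30 ± 0.11 in NF_Calb1 (adjusted p = 2.75e-46), 2.90 ± 0.14 in NF2_Ntrk2.Necab2 and 3.21 ± 0.12 in PEP2_Htr3a.Sema5a. Th neurons came next with no overlap and held 44.1 ± 8.38 CPM, with a log2 fold change of 0.82 that was under the 2-fold minimum. PEP3_Trpm8 held 19.7 ± 6.58 CPM, and the remaining 6 types, all called lower, held 2.05 to 9.38 CPM. PEP3_Trpm8 was called lower only against the summed other neurons (log2 fold change -1.93).

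Scn3a, an alpha subunit best known from the embryonic nervous system, was low and had a pattern of its own. PEP3_Trpm8 neurons, named for the cold receptor, held 30.0, 36.7, 35.7, 39.8 and 34.6 CPM, above Th neurons at 27.9, 24.7, 27.3, 28.1 and 25.3 CPM in all 5 mice with no overlap. Both were called higher, with log2 fold changes of 3.45 ± 0.19 (adjusted p = 1.07e-25) and 2.99 ± 0.17 (adjusted p = 2.60e-26). PEP1_Dcn (19.0 ± 5.00 CPM) and PEP1_Slc7a3.Sstr2 (14.4 ± 4.65 CPM) overlapped each other and were called higher too. The 3 NF types and PEP2_Htr3a.Sema5a lay between 3.87 and 7.66 CPM and were not called. The 3 NP types and PEP1_S100a11.Tagln2 held 0.176 to 1.07 CPM and were called lower, but NP_Nts rested on 2 UMIs, both in mouse 3, and NP_Mrgpra3 on 6 UMIs, all in mouse 5. Without mouse 3 or mouse 5 a type in the reference held no Scn3a UMI, and the lower calls in NP_Mrgprd and PEP1_S100a11.Tagln2 could not be made (adjusted p = 1).

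Scn9a was the most even of the members. In PEP2_Htr3a.Sema5a the 5 mice gave 337, 317, 483, 368 and 420.1 CPM, and in Th neurons 296, 300.1, 511, 296 and 294 CPM. From these down to NF2_Ntrk2.Necab2 at 181 ± 17.9 CPM, the ranges of 11 types each overlapped that of the next. The ends did not overlap, with at least 317 CPM in PEP2_Htr3a.Sema5a and at most 201 CPM in NF2_Ntrk2.Necab2. None of the 11 was called at the 2-fold minimum. PEP2_Htr3a.Sema5a (log2 fold change 0.92), Th (0.75), NP_Mrgprd (0.50) and NP_Nts (0.44) had an adjusted p under 0.01 with a smaller change. NF_Pvalb was apart, at 70.9, 35.6, 33.6, 47.3 and 23.8 CPM, below every other type in all 5 mice, and was called lower with a log2 fold change of -2.67 ± 0.18 (adjusted p = 2.53e-22). The mean of the highest type was 9.11 times that of the lowest, against 21.4 to 661 times for the other members. Levels of mouse 3 were the highest in 7 of 12 types, with a mean of 293 CPM over types against 208 to 223 in the other mice.

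The TTX-resistant pair Scn10a and Scn11a shared most of a map, and differed in call in PEP2_Htr3a.Sema5a and PEP1_S100a11.Tagln2. Scn10a was highest in PEP2_Htr3a.Sema5a neurons, at 382, 321, 461, 384 and 446 CPM, above NP_Mrgpra3 within all 5 mice although the ranges overlapped. NP_Mrgpra3 held 350.4, 222, 192, 221 and 243 CPM and NP_Mrgprd 229, 270.3, 271, 209 and 215 CPM. Scn11a was highest in those NP types, at 409, 313, 294, 229 and 238 CPM in NP_Mrgpra3 and 242, 308, 359, 213 and 239 CPM in NP_Mrgprd. Its level in PEP2_Htr3a.Sema5a was 57.5, 91.1, 98.6, 57.1 and 88.8 CPM, below both NP types in every mouse. Scn10a made up 35.7 ± 1.70% of the UMIs of the 6 alpha members in PEP2_Htr3a.Sema5a and Scn11a 7.04 ± 1.67%, against 31.1 ± 2.19% and 35.1 ± 2.01% in NP_Mrgprd. In PEP1_S100a11.Tagln2 the shares were 38.9 ± 3.85% and 16.3 ± 3.49%, and Scn10a was called higher (log2 fold change 1.92) while Scn11a was not (0.84). That Scn10a call was lost against the summed other neurons (0.10), and the difference between the genes was not tested.

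Scn10a was called higher in 6 types, with log2 fold changes from 1.26 ± 0.17 in PEP1_Slc7a3.Sstr2 to 3.01 ± 0.14 in PEP2_Htr3a.Sema5a (adjusted p = 1.03e-29), and Scn11a in 4 types, from 1.61 ± 0.15 in PEP1_Slc7a3.Sstr2 to 2.95 ± 0.14 in NP_Mrgpra3 (adjusted p = 5.70e-29). Against the summed other neurons, Scn10a was higher only in PEP2_Htr3a.Sema5a (log2 fold change 1.18) and Scn11a only in NP_Mrgprd (1.65), and PEP1_Dcn and PEP2_Htr3a.Sema5a then became lower for Scn11a (-1.05 and -1.18). Both genes were near 0 in the same 3 types, which each reference called lower. NF_Pvalb, PEP3_Trpm8 and NF2_Ntrk2.Necab2 held 2.53 ± 2.84, 2.17 ± 1.82 and 1.25 ± 1.14 CPM of Scn10a and 2.91 ± 2.38, 3.47 ± 3.44 and 1.59 ± 1.74 CPM of Scn11a. The highest mouse of these types held 6.85 CPM of Scn10a and 9.18 CPM of Scn11a, and the lowest mouse of the next type, NF_Calb1, held 12.9 and 22.9 CPM.

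Scn2b, a beta subunit joined to the alpha subunit by a disulfide bond, was highest in 3 PEP types and low in NF neurons. PEP3_Trpm8 held 84.1, 80.7, 71.4, 61.9 and 90.8 CPM, PEP2_Htr3a.Sema5a 45.3, 76.3, 62.4, 91.4 and 102 CPM, and PEP1_Dcn 34.2, 78.4, 62.5, 59.1 and 68.9 CPM. The 3 types overlapped and were called higher, PEP3_Trpm8 with a log2 fold change of 3.32 ± 0.21 (adjusted p = 2.93e-22), also against the summed other neurons. NP_Nts (36.4 ± 10.2 CPM), Th (35.2 ± 5.24 CPM) and PEP1_S100a11.Tagln2 (22.3 ± 6.38 CPM) were called higher only against the log mean. NP_Mrgprd at 2.99 ± 1.19 CPM stood well under NP_Nts of the same class. The NF types held 2.44 ± 1.49, 0.632 ± 0.800 and 0.216 ± 0.484 CPM and were called lower, but NF2_Ntrk2.Necab2 rested on 1 UMI in mouse 2, and without that mouse or without sums of under 10 cells the calls in NF_Calb1, NF_Pvalb and NP_Mrgprd could not be made (adjusted p = 1).

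Scn3b, a beta subunit that binds without a disulfide bond, was highest in Th, NP_Mrgpra3, PEP1_Dcn and NP_Nts neurons. Th neurons held 55.9, 100.5, 48.7, 95.2 and 81.6 CPM, NP_Mrgpra3 76.4, 92.4, 58.5, 69.3 and 73.7 CPM, PEP1_Dcn 54.8, 89.5, 66.4, 83.4 and 72.5 CPM, and NP_Nts 70.2, 89.7, 61.3, 60.4 and 56.3 CPM. These 4 overlapped, were above all other types in the mean, and were called higher under both references, with log2 fold changes of 1.36 to 1.62. The other PEP types held 35.9 to 42.4 CPM and were not called. NP_Mrgprd (10.7 ± 2.55 CPM) and the 3 NF types (3.58 to 9.91 CPM) were called lower under both references. Within the NP class, then, NP_Mrgprd lay below NP_Mrgpra3 and NP_Nts in every mouse, and the same order held for Scn2b between NP_Mrgprd and NP_Nts.

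Scn4b, a disulfide-linked beta subunit known for resurgent current, followed Scn8a. NF2_Ntrk2.Necab2 held 100.4, 117, 78.0, 87.0 and 74.0 CPM, NF_Pvalb 148, 94.8, 79.8, 59.8 and 69.4 CPM, and NF_Calb1 100.3, 78.1, 109, 72.2 and 76.6 CPM. They overlapped and did not hold a set order, and PEP2_Htr3a.Sema5a came next at 55.0, 45.0, 54.0, 46.3 and 58.9 CPM, below NF_Calb1 in all mice. Log2 fold changes were 4.62 ± 0.17 (adjusted p = 5.00e-36), 4.51 ± 0.16, 4.50 ± 0.15 and 3.71 ± 0.16 in these 4 types. Th neurons (11.99 ± 3.29 CPM) were called higher against the log mean only, PEP3_Trpm8 held 7.53 ± 5.22 CPM, and the other 6 types 0.152 to 1.80 CPM. These 6 were called lower under both references, although PEP1_Dcn lost the call without mouse 2 or mouse 3 (adjusted p = 0.0236 and 0.0402).

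**Figure D2:**
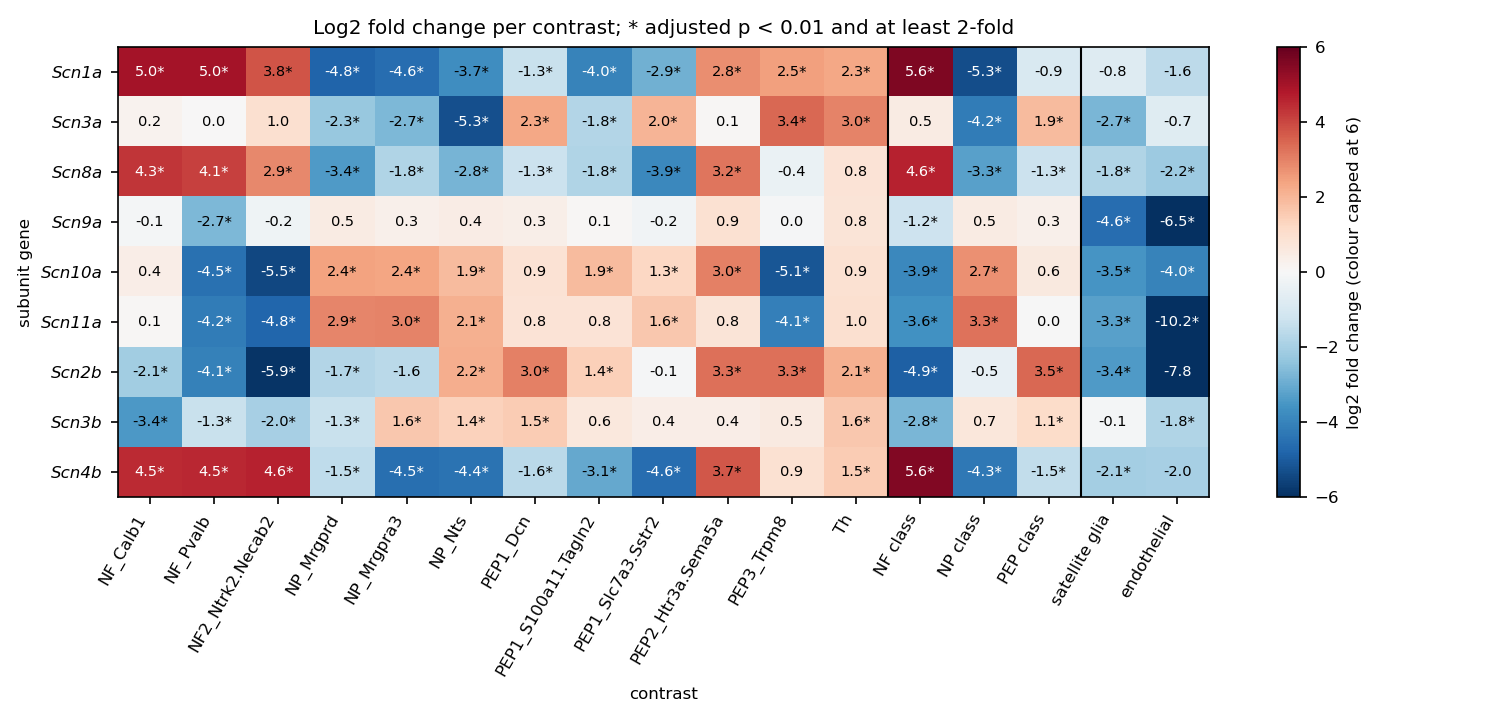
Log2 fold changes (numbers and colour) of the 9 members (rows) in 17 contrasts (columns): each neuron type against the log mean of the other neuron types, the 3 classes against the other neuron types, and the non-neuronal types against all neuron types; a star marks an adjusted p under 0.01 with at least a 2-fold change. Scn9a carries 1 star among the 12 neuron types, and PEP2_Htr3a.Sema5a and Th carry 5 each, all on the higher side.

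The counts differed by type. In NF_Calb1, 3 members were higher and 2 lower, where 16.2% and 7.17% of all genes tested were. For NF_Pvalb the counts were 3 and 5 against 14.6% and 10.8% of all genes, and for NF2_Ntrk2.Necab2 3 and 4 against 10.2% and 7.71%. Among the NP types, NP_Mrgprd had 2 higher and 6 lower (8.46% and 11.2% of all genes), NP_Mrgpra3 3 and 4 (7.4% and 7.95%) and NP_Nts 4 and 4 (9.34% and 11.5%). The NP_Mrgprd pattern was the barest, with Scn10a and Scn11a alone higher and Scn9a alone uncalled. PEP1_Dcn had 3 higher and 3 lower (10.9% and 2.58% of all genes), PEP1_S100a11.Tagln2 2 and 4 (8.37% and 3.35%), and PEP1_Slc7a3.Sstr2 3 and 3 (10.2% and 5.5%). PEP2_Htr3a.Sema5a had 5 higher and 0 lower (12.6% and 2.86%), PEP3_Trpm8 3 and 2 (11% and 6.74%) and Th 5 and 0 (9.47% and 8.2%). At an unadjusted p under 0.05, 8 members differed in PEP2_Htr3a.Sema5a and 9 in Th. PEP2_Htr3a.Sema5a was the type with the most mixed set, since Scn1a, Scn8a and Scn4b of the NF pattern, Scn10a and Scn2b were all higher there; against the summed other neurons 4 of these held and Scn1a did not. Of the 5 calls in Th, Scn3a and Scn3b held against the summed other neurons and Scn1a, Scn2b and Scn4b did not.

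Taken by class, the NF types had 3 members higher (13.4% of all genes) and 5 lower (11.4%) than the other 9 neuron types. Scn1a, Scn8a and Scn4b were higher, with log2 fold changes of 5.60 ± 0.12 (adjusted p = 1.64e-50), 4.60 ± 0.10 and 5.55 ± 0.13. Scn10a (-3.88 ± 0.27), Scn11a (-3.62 ± 0.21), Scn3b (-2.76 ± 0.16), Scn2b (-4.89 ± 0.31) and Scn9a (-1.23 ± 0.09) were lower, the last through NF_Pvalb. NF_Calb1 was not lower for Scn10a or Scn11a by itself (log2 fold changes of 0.42 and 0.06 against the log mean), and was called lower for both against the summed other neurons (-1.44 and -1.86). The NP types had 2 members higher (7.38% of all genes), Scn10a at 2.73 ± 0.12 and Scn11a at 3.26 ± 0.11 (adjusted p = 2.05e-38), and 4 lower (12%), namely Scn1a, Scn3a, Scn8a and Scn4b, at -5.34 to -3.27. The PEP types had Scn2b (3.46 ± 0.17), Scn3a (1.92 ± 0.20) and Scn3b (1.10 ± 0.11) higher (3 members; 10.5% of all genes) and Scn8a (-1.29 ± 0.12) and Scn4b (-1.46 ± 0.38) lower (2 members; 3.31%). Within the class, PEP2_Htr3a.Sema5a went the other way for Scn8a and Scn4b, with type calls of 3.21 and 3.71. PEP1_S100a11.Tagln2 was called lower for Scn3a (-1.77), and PEP2_Htr3a.Sema5a was not called for Scn3a (0.05). Among PEP types, Scn3b was called higher only in PEP1_Dcn (1.52). Scn2b was not called in PEP1_Slc7a3.Sstr2 (-0.06). The Scn4b call in PEP was lost without mouse 2 or mouse 3 (adjusted p = 0.0225 and 0.0246), and with no minimum fold 8 members were called there (47.1% of all genes). The median log2 fold change over all genes lay between -0.07 and 0.07 in the neuron types and classes, while that of the members was -1.23 in NF, -0.47 in NP and 0.33 in PEP.

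The TTX-resistant share of alpha subunit RNA was measured as the share of Scn10a and Scn11a in the UMIs of the 6 alpha members. In NP_Mrgpra3 it was 73.3, 70.7, 65.6, 65.9 and 67.0% over the 5 mice and in NP_Mrgprd 65.3, 71.0, 64.0, 65.6 and 64.9%. In PEP2_Htr3a.Sema5a it was 41.9, 43.4, 41.2, 43.0 and 44.0%. Both NP types lay above PEP2_Htr3a.Sema5a in every mouse and overlapped each other, and NP_Nts (57.2 ± 4.24%), PEP1_Slc7a3.Sstr2 (56.7 ± 3.26%) and PEP1_S100a11.Tagln2 (55.1 ± 6.56%) had means between. PEP1_Dcn followed at 37.3 ± 3.12% and Th at 30.3 ± 4.29%. NF_Calb1 was at 13.1 ± 4.34%, and PEP3_Trpm8 (1.80 ± 1.07%), NF_Pvalb (1.02 ± 1.05%) and NF2_Ntrk2.Necab2 (0.691 ± 0.656%) were near 0. The mean over the NF types was 4.93% against 46.2% over the other 9 neuron types, a difference of -41.3 percentage points (SD 3.01) that held in 5 of 5 mice. An exact two-sided sign-flip permutation test over the 5 mice gave p = 0.063, the smallest it can give. PEP3_Trpm8 sat with the NF types in this measure, as its alpha UMIs were 68.0 ± 4.44% Scn9a, 11.9 ± 4.48% Scn1a and 11.8 ± 1.91% Scn3a.

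**Figure D3:**
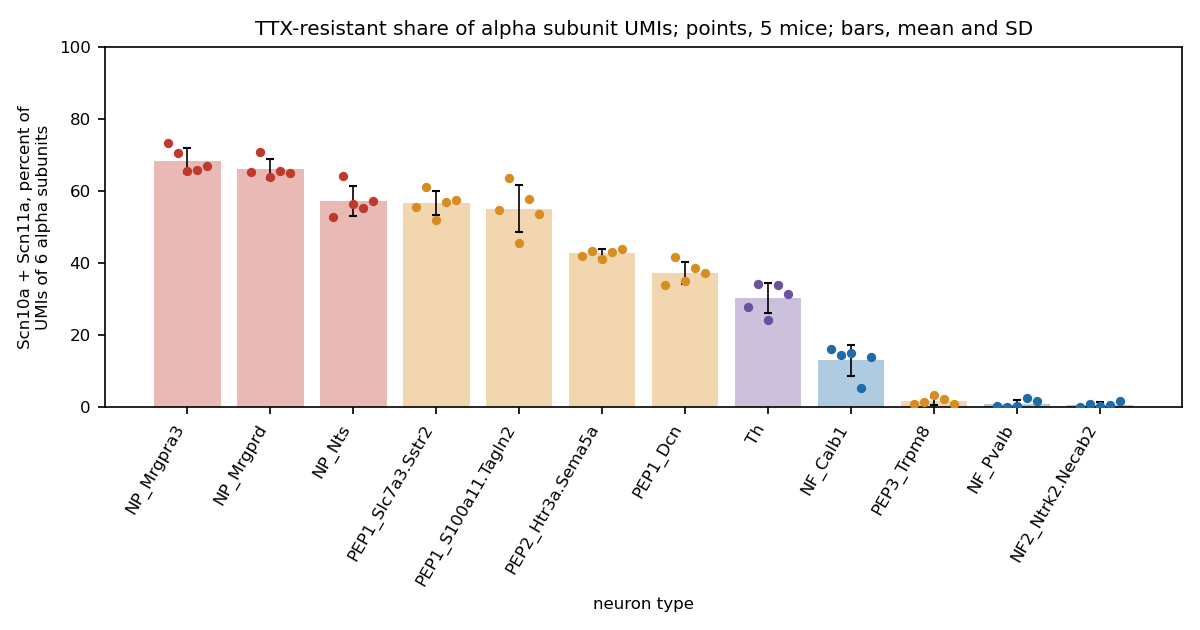
Share of Scn10a and Scn11a among the UMIs of the 6 alpha members (y axis, percent) by neuron type (x axis); points are the 5 mice and bars the mean with the SD. The NP types sit at 52.7% or more in every mouse, and PEP3_Trpm8, NF_Pvalb and NF2_Ntrk2.Necab2 at 3.46% or less.

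The NF_Calb1 mean of 13.1% did not describe its cells. Of its 180 neurons, 108 held 0 UMIs of Scn10a and Scn11a, 38 held 1 to 4 and 9 held 5 to 9. The remaining 25, found in all 5 mice, held 10 or more and together 94.5% of the TTX-resistant UMIs of the type (1913 UMIs), and 9 of these lay near the limit with 10 to 14. The limit was set after the values were seen, so the values are a description with no test. Those 25 neurons held 8.68 CPM of Calb1, the gene in the name of the type, and 22 of them held 0 Calb1 UMIs. The other 155 held 272 CPM, with 55 at 0. Scn8a was at 584 CPM in the 25 and 410 CPM in the 155, so the NF alpha subunit was present in both. Scn9a was at 478 and 170.2 CPM, Scn10a at 529 and 1.28 CPM, and Scn11a at 301 and 7.65 CPM. These pooled levels do not describe each of the 25 neurons, since 18 held an Scn10a UMI and all 25 an Scn11a UMI. Those without Scn10a held 10 to 20 UMIs of Scn11a. Htr3a and Sema5a, which name the PEP2 type, were at 76.8 and 209.6 CPM in the 25 neurons and at 46.4 and 45.1 CPM in the 155, while PEP2_Htr3a.Sema5a itself held 634 ± 122 and 114 ± 23.6 CPM. The median depth was 86043 UMIs per cell in the 25 neurons and 75857 in the rest, and the part of doublets in these values was not tested. By mouse, the 25 were 2 of 16, 5 of 29, 10 of 44, 2 of 24 and 6 of 67 neurons.

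**Figure D4:**
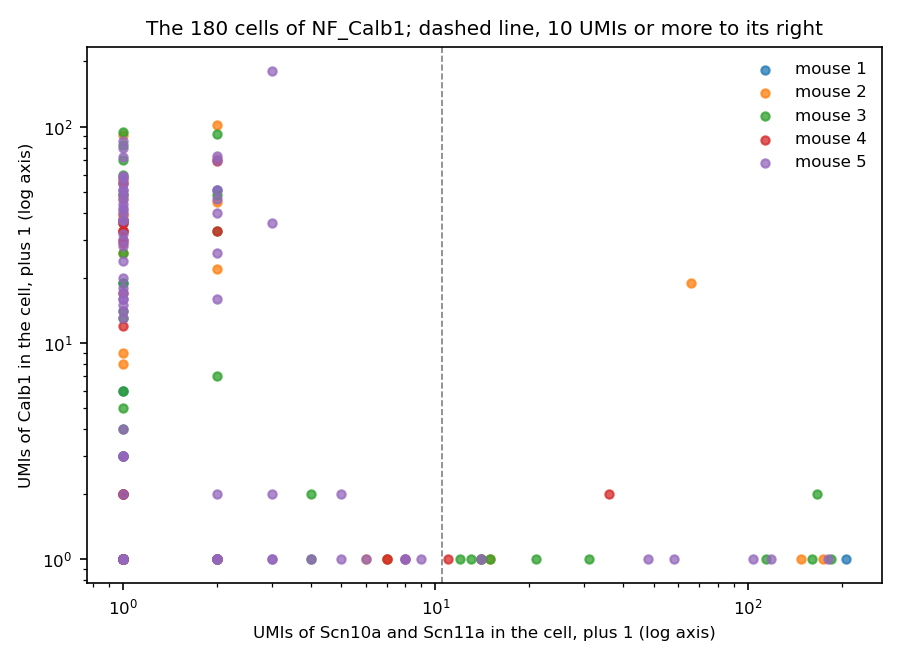
Each of the 180 NF_Calb1 neurons by its UMIs of Scn10a and Scn11a together (x axis, plus 1, log scale) and of Calb1 (y axis, plus 1, log scale), coloured by mouse; the dashed line has the neurons with 10 or more to its right. Of the 25 neurons to the right of the line, 22 lie at 0 Calb1 UMIs.

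The share of neurons with at least 1 UMI was read after each cell was thinned to 10000 UMIs, since depth differed between types. At that depth Scn9a was seen in 69.9 to 94.8% of the neurons of 11 types and in 28.4 ± 7.86% of NF_Pvalb neurons (SD, n = 5 mice). Satellite glia, a type that should lack Scn9a, held 4.85 ± 3.51%. Free RNA and doublets were not told apart in the glia values, which are given for comparison and do not measure background in neurons. Scn8a was seen in 95.8 ± 1.50% of NF_Calb1, 80.3 ± 3.38% of PEP2_Htr3a.Sema5a and 36.8 ± 4.11% of Th neurons. The NP types held 2.97 to 8.75%, where satellite glia held 4.85 ± 2.39%. Scn10a was seen in 88.2 ± 1.95% of NP_Mrgprd and 90.7 ± 1.81% of PEP2_Htr3a.Sema5a neurons, and in 1.54 to 1.84% of NF_Pvalb, NF2_Ntrk2.Necab2 and PEP3_Trpm8 neurons, where satellite glia held 3.66 ± 2.26%. Both TTX-resistant genes were seen in the same cell in 79.2 ± 4.55% of NP_Mrgprd, 40.9 ± 5.58% of PEP2_Htr3a.Sema5a and 27.1 ± 7.48% of PEP1_Dcn neurons. Scn1a and Scn8a were seen together in 74.8 ± 5.63% of NF_Calb1 and 26.8 ± 8.72% of PEP2_Htr3a.Sema5a neurons. Without thinning, Scn8a had a UMI in 24.4% of NP_Mrgprd neurons and 8.73% of satellite glia, whose median depths were 105150 and 17729 UMIs. That is 249 UMIs in 900 neurons and 28 in 249 glia. Free RNA enters per droplet and thinning lowers its share in deeper cells, so whether Scn8a in NP_Mrgprd and NP_Nts lay above background was not settled by either value.

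**Figure D5:**
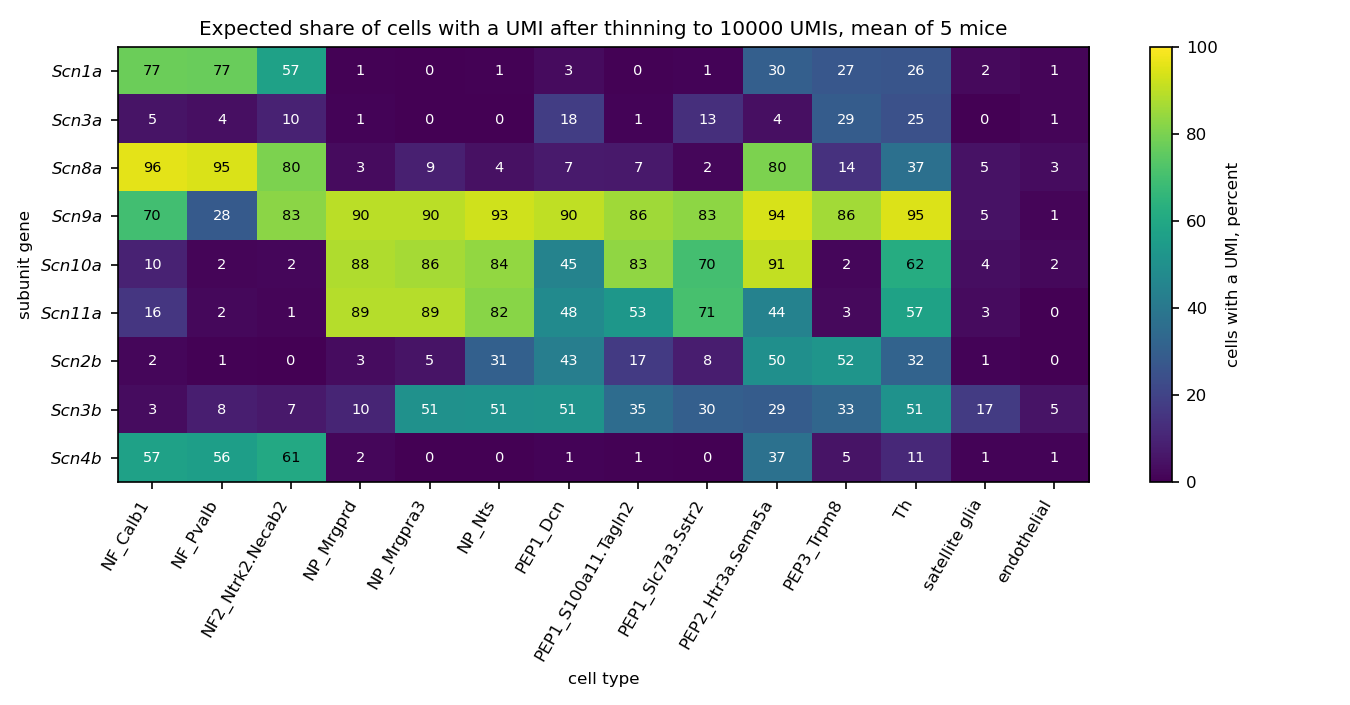
Share of cells with at least 1 UMI of each member (rows) in each type (columns), in percent, expected after thinning every cell to 10000 UMIs and averaged over the 5 mice. Scn9a runs from 69.9% to 94.8% in all neuron types except NF_Pvalb (28.4%), and Scn3b is the only member above 10% in satellite glia (17.2%).

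In satellite glia, 7 members were lower than in the neuron types (24.9% of all genes were) and 0 higher (25.8%), by edgeR's quasi-likelihood test. For 8 members the level in satellite glia was 2.52 to 5.55% of the neuron mean, near the 2.06 to 6.39% of the 5 neuron markers. Scn3b was apart, with 5.04, 23.1, 18.0, 30.1 and 20.2 CPM in the 5 mice, 47.6 ± 20.7% of its neuron mean, and a log2 fold change of -0.10 that was not called. Its 99 UMIs lay in 82 of 249 glia. Scn1a was not called either (log2 fold change -0.77), as its log mean over neurons is set by types near 0. In endothelial cells 5 members were lower (28.9% of all genes) and 0 higher (21.4%), on 941065 UMIs in all. Scn11a and Scn2b had 0 of these, which allows up to 3.19 CPM and puts them at least 33.3-fold and 8.63-fold lower than the neuron mean, with the 3 counts taken over the group. Such limits cover counting error only. In satellite glia the calls of Scn3a, Scn2b and Scn4b, and in endothelial cells those of Scn8a and Scn3b, were lost when 1 mouse or another was left out. Without mouse 5 the endothelial count was 3, and the median over all genes was -0.11 in satellite glia and -0.60 in endothelial cells.

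Among other sodium channel subunits, Scn7a, a sodium-sensing relative of the channels, was called higher in NF2_Ntrk2.Necab2 (618 ± 91.1 CPM), NF_Calb1 (550.1 ± 43.0 CPM) and PEP2_Htr3a.Sema5a (422 ± 70.3 CPM) by edgeR's quasi-likelihood test. It was thus higher in PEP2_Htr3a.Sema5a along with Scn8a and Scn4b. Scn2a1, an alpha subunit best known from the brain, held 5.18 to 23.5 CPM in neuron types, most in PEP3_Trpm8. Scn4a, the alpha subunit of skeletal muscle, did not pass the filter.

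Partners of the channels are proteins that anchor, modulate or remove them, and 14 of the 15 listed were tested, as Fgf14 did not pass the filter. In NF neurons 5 were higher and 2 lower, where 13.4% and 11.4% of all genes were, with a median log2 fold change of 0.58. The higher ones were the adhesion proteins Cntn1 (5.23 ± 0.11), Nfasc (3.54 ± 0.08) and Nrcam (3.48 ± 0.14), the spectrin Sptbn4 (2.02 ± 0.11) and the channel-binding factor Fgf11 (3.66 ± 0.45). Fgf11 had 0 UMIs in NP_Mrgpra3, so its log mean rests on a type without a UMI and its fold changes are not well defined. NF2_Ntrk2.Necab2 held 12 UMIs of it and was not called (0.49), and PEP2_Htr3a.Sema5a held 18.3 CPM against 16.9 CPM in NF_Calb1 and 36.5 CPM in NF_Pvalb. This limit also covers its calls in NP, PEP and PEP2_Htr3a.Sema5a below, where the only call in PEP was Fgf11. Ank3, the ankyrin that anchors the channels at node and initial segment, had a log2 fold change of -0.80 ± 0.09 in NF (adjusted p = 2.92e-12), under the 2-fold minimum. Fgf13, which binds the channels' C-terminus, and Nedd4l, a ubiquitin ligase that marks them for uptake, were lower in NF (-1.53 ± 0.09 and -1.79 ± 0.09) and higher in NP neurons (1.17 ± 0.08 and 1.24 ± 0.07). Neither was particular to NP. Fgf13 held 1006 to 1167 CPM in PEP1 types and 962 to 1069 CPM in NP types. By type it was called higher only in PEP1_Slc7a3.Sstr2 (1.08). Nedd4l was called higher in Th (245 CPM), NP_Nts (225 CPM), PEP1_S100a11.Tagln2 (203 CPM) and PEP2_Htr3a.Sema5a (199 CPM). It was not called in NP_Mrgprd (155 CPM) or NP_Mrgpra3 (148 CPM). NP had 2 higher and 5 lower (7.38% and 12% of all genes, median of the list -0.54) and PEP 1 higher and 0 lower (10.5% and 3.31%, median 0.06), a share in PEP near that of all genes. PEP2_Htr3a.Sema5a had 9 of 14 higher and 0 lower (12.6% and 2.86% of all genes, median 1.18), among them Cntn1 at 708 ± 173 CPM and Fgf12 at 692 ± 123 CPM. In satellite glia 1 was higher, Nrcam (2.10 ± 0.23), and 10 lower (25.8% and 24.9% of all genes), and in endothelial cells 11 were lower (28.9%).

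Likeness of pattern was measured as Pearson's r of log2(CPM + 1) over the 60 sums of neuron type and mouse, among 9966 genes with at least 10 CPM in 1 neuron type or more. These sums share libraries, types and depth, and the values are a description. Scn10a and Scn11a were each other's nearest gene (r = 0.93), ahead of Nmb and P2rx3 for Scn10a (0.92 and 0.90) and P2rx3 and Nmb for Scn11a (0.88 and 0.88). Scn8a had Cds1 (0.95), Scn4b (0.94) and Nat8l (0.93), Scn4b had Lrrn1 (0.95), Scn8a (0.94) and Rell2 (0.94), and Scn1a had Atp2b2 (0.96), Syt3 (0.95) and Ndrg3 (0.95), with Scn4b at 0.93 and Scn8a at 0.92. Neighbours in the genome did not follow each other by rule: Scn1a and Scn9a had r = -0.35, and Scn2b and Scn4b r = -0.36. Scn2b was nearest to Hdgfrp3 (0.79), Ifi35 (0.79) and Mgll (0.78), and to Scn3b at 0.70 among the members. Scn3b had Zfp575, Hdgfrp3 and Eef1g (0.84 to 0.85). Scn9a had Ppef1, Osbpl3 and Garnl3 (0.85 to 0.89) and Scn3a had Gpr162, Chd5 and Gabrb1 (0.86 to 0.89). Over the 12 type means, 15 of the 27 genes named stayed among the 3 nearest.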

How the data were processed

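Dissociated lumbar dorsal root ganglia of 5 mice were sequenced as droplet 3′ libraries. The authors aligned reads with Cell Ranger 2.0.0 to mm10 and named the types with Seurat 3.0.1, and they deposited 1 matrix of raw UMI counts with a type for each cell. The libraries in the matrix could not be matched to single sample labels, all of 1 group, so mouse numbers are names. The study's methods state a limit on mitochondrial UMIs, yet 188 of 3352 cells lay above 10%, and all were kept. The 4 rows that name no mouse gene (6.37e-05 percent of UMIs) were left out. Doublets were not called.

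Counts were summed per type and mouse and tested in R 4.3.3 with edgeR 4.0.16 (quasi-likelihood test, TMM scaling, filterByExpr, 1 term per type), with Benjamini-Hochberg adjustment over 11886 genes, a threshold of 0.01 and a 2-fold minimum. The fit was tested on simulated counts for the NF_Pvalb contrast alone, with changes set in well-covered genes and a lower minimum fold than used here. That simulation does not cover members near 0. SE is the log2 fold change divided by the root of F. Replicates are mice, and p-values measure the spread between their sums. Sums of 1 mouse are paired by origin: their residuals had a median r of 0.09 within a mouse and -0.02 between mice. Alternatives were DESeq2 1.42.0, no filter, a mouse block, sums of at least 10 cells, no mitochondrial rows, each mouse left out, other thresholds and the summed other neurons as reference. Thinning kept the expected share of cells at 10000 UMIs per cell.

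The members, the lists and the tests were chosen with earlier results of these data known. Named are the 9 members, other subunits, of which some are not reported here, 15 partners and, for each member, the 3 genes with the highest correlation over the 60 sums of neuron type and mouse. The genes of the type names and the cut at 10 UMIs in NF_Calb1 neurons were added after values were seen.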

Additional observations from a re-analysis of the deposited data

Results flagged for a closer look

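In 7 of 79 groups of 5 mice, 1 mouse stood apart from the other 4 by Dixon's criterion at a critical value of 0.71. For normally spread values, 1 in 20 groups, or 3.95, would do so by chance. The groups share libraries and some share UMIs, as the flags in NF_Calb1 do, so setting 7 against 3.95 is not a test. Scn9a stood apart in mouse 3 in 3 types, at 349 CPM in NP_Mrgprd (others 219 to 246 CPM), 339 CPM in PEP1_S100a11.Tagln2 (others 178 to 210.2 CPM) and 511 CPM in Th neurons (others 294 to 300.1 CPM). Scn2b in NP_Nts was at 54.1 CPM in mouse 2 and at most 35.4 CPM in the others. In NF_Calb1, mouse 4 held 22.9 CPM of Scn11a against at least 51.3 CPM in the others, and a TTX-resistant share of 5.46% against at least 14.04%. The same share in NP_Mrgprd was 71.0% in mouse 2 and at most 65.6% in the others.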

How the results depend on the processing

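Of 107 called pairs of member and contrast, 15 lost the call under at least 1 alternative that kept the log-mean reference. None turned its direction under those alternatives. DESeq2 and no filter on low counts lost 0 calls, sums of at least 10 cells 5, mitochondrial rows left out 1, and leaving out mice 1 to 5 lost 2, 8, 9, 2 and 7. Of the 34 losses, 16 came where a neuron type was left without a UMI, so that the log mean could not be estimated. With the mouse as a replicate block, 39 pairs were higher and 37 lower, and no call was lost or gained. Against the summed other neurons 24 pairs were higher in place of 39, and 61 of the 76 calls in neuron types held, so that 15 further pairs lost theirs. Some of these pairs also changed sign. In PEP1_Slc7a3.Sstr2 the log2 fold change of Scn10a went from 1.26 to -0.58 and that of Scn11a from 1.61 to -0.33. In Th that of Scn4b went from 1.54 to -0.64. Others kept their sign, such as Scn10a in NP_Mrgprd (2.41 to 0.80). With no minimum fold 8 members were called in the PEP class in place of 5. Leaving out 1 mouse gave 39 to 41 higher and 32 to 38 lower pairs, 4 to 6 calls in PEP, 5 to 6 in satellite glia and 3 to 4 in endothelial cells. The difference in TTX-resistant share ran from -42.1 to -40.3 points over these, and was -34.8 points with all alpha subunit rows in the total. The median detection of members in their highest type was 77.5% at 10000 UMIs, 91.9% at 20000 and 99.4% unthinned. DESeq2's scaling moved the median log2 fold change of all genes to between -0.30 and 0.17. Depth limits values near 0: Scn2b in NF2_Ntrk2.Necab2 rests on 1 UMI and Scn3a in NP_Nts on 2. The causes of the other changes were not tested.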
